A study of Sus scrofa with 10 samples.

Results

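Cyclic nucleotide phosphodiesterases (PDEs) are the enzymes that break down cAMP and cGMP, and 10 of their genes are described here in right ventricles of Sham pigs and of CTEPH pigs (chronic thromboembolic pulmonary hypertension, a disease of lung arteries obstructed by clots that do not dissolve). The genes were chosen by symbol from a family list: the cGMP-selective PDE5A and PDE9A, the cAMP-selective PDE4B, PDE4D and PDE8A, and PDE1A, PDE1C, PDE2A, PDE3A and PDE3B, whose products hydrolyse both nucleotides. The choice was made with earlier results of these data known. All 10 were measured, among 12378 genes of the deposited table that carry a symbol. The table holds 1 library per pig from right ventricular biopsies, 5 of CTEPH pigs (s1, s3, s4, s5 and s9) and 5 of Sham pigs (s2, s6, s7, s8 and s10). The sources used here name no strain, age, sex, drug, way of inducing CTEPH or time after surgery, so these could not be compared between the groups. The 9 measured cardiomyocyte markers, among them TNNT2, MYBPC3 and RYR2, were present in every library.

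In the heart, cAMP made by adenylyl cyclases after adrenergic stimulation speeds and strengthens contraction through protein kinase A, and cGMP made by natriuretic peptide receptors and soluble guanylyl cyclase acts through protein kinase G. Each PDE removes 1 or both of these messengers in its own part of the cell, so the mixture of PDEs shapes how far and how long each signal reaches. PDE3 and PDE4 are known as the main cAMP-degrading enzymes of the myocardium, PDE2 is switched on by cGMP, PDE3 is held back by it, PDE1 needs calcium and calmodulin, and PDE5 is the target of sildenafil, a vasodilator used in pulmonary hypertension.

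Values are the deposited log2 expression values, which are not scaled by gene length, so levels of different genes are not ranked. Where values of genes are subtracted or summed within a library, the result is read by comparing it across libraries. A fold change is the mean log2 value of CTEPH less that of Sham, from a limma fit over all genes, with the standard error (SE) and a p adjusted over all genes by the Benjamini-Hochberg method. A gene is called changed at an adjusted p under 0.05. Of all genes 4.62% were called, 2.83% higher and 1.79% lower in CTEPH, and 6.57% had groups that did not overlap (3.70% with CTEPH above and 2.87% with CTEPH below Sham). Relative sequencing depth ranged from 0.724 to 1.57 in the CTEPH and from 0.748 to 1.51 in the Sham libraries. In bulk tissue, fewer cells of a type and less RNA per cell cannot be told apart.

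Of the 10 PDE genes, 1 was lower in CTEPH and 0 were higher, against 4.62% of all genes called in either direction. That gene was PDE2A, at 0.658 times its Sham level. An unadjusted p under 0.05 was reached by 4 of the 10 genes (PDE2A, PDE3A, PDE4B and PDE8A), where 20.3% of all genes reached it. The 3 cAMP-selective genes all had positive fold changes, with a median of 0.53, while 4 of the 5 genes for both substrates had negative ones, with a median of -0.35. This split holds for the genes chosen and not for their families. The other measured PDE4 and PDE8 genes, PDE4A, PDE4C and PDE8B, had negative fold changes (-0.83, -0.68 and -0.38), without passing. The 2 cGMP-selective genes lay at 0.11 and -0.05. The median over all 10 was 0.03, beside -0.03 over all genes tested.

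**Figure D1:**
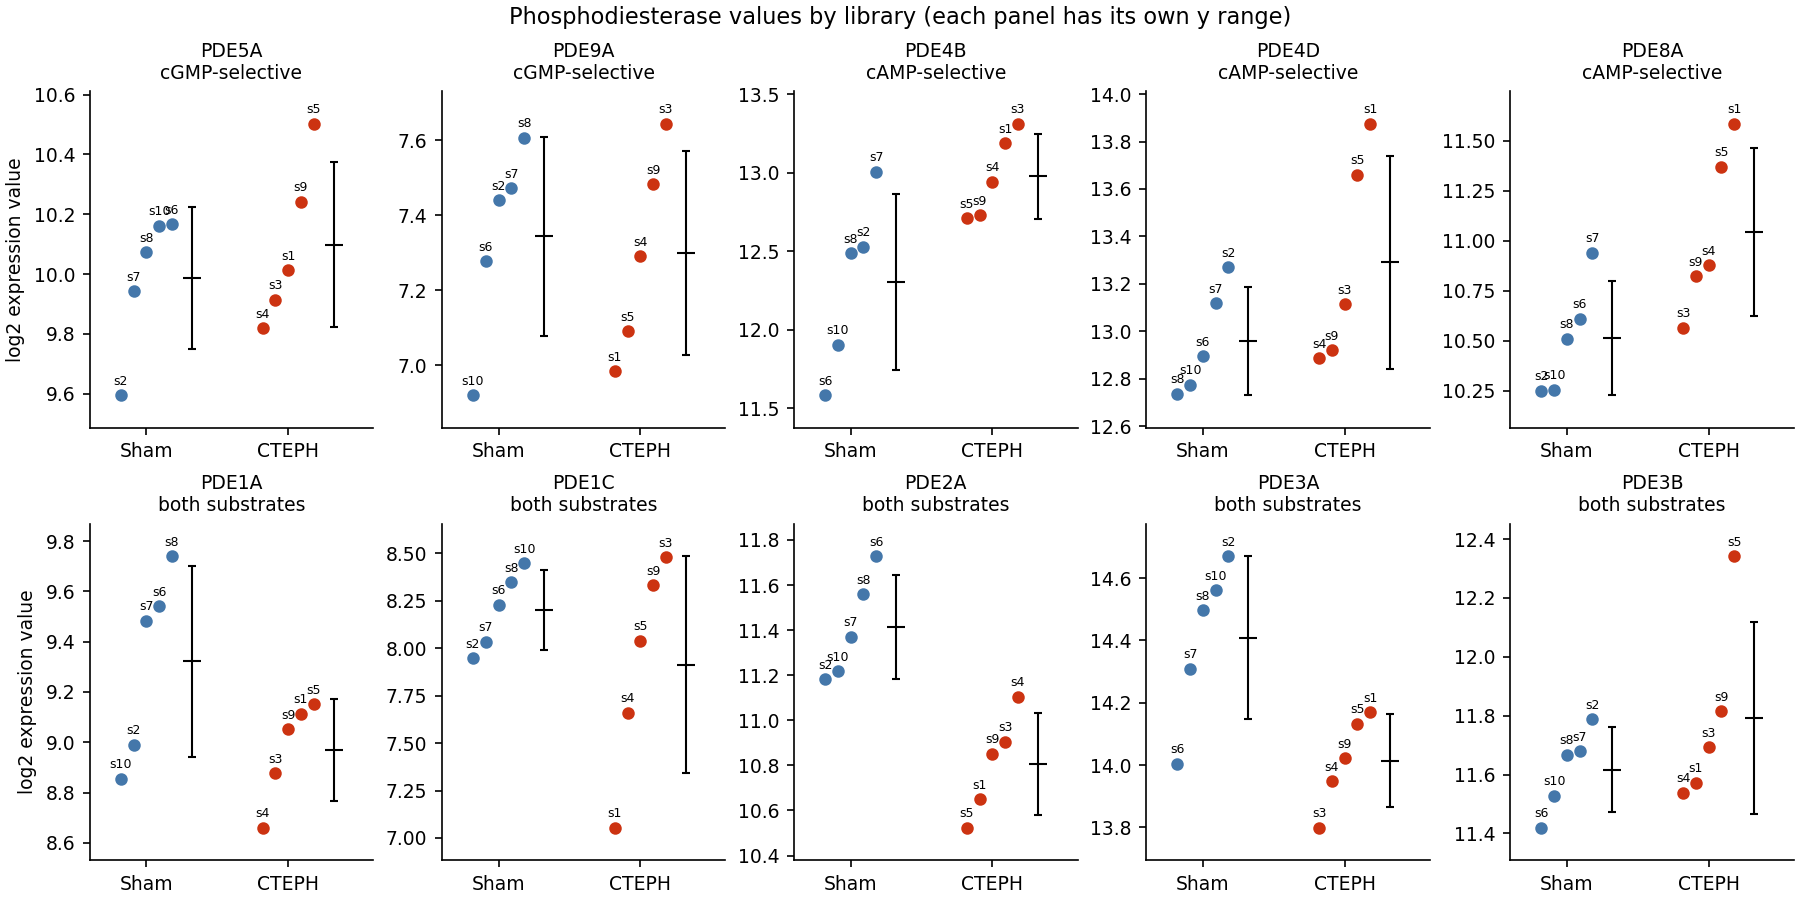
Deposited log2 expression value (y axis, a separate range in each panel) of each of the 10 phosphodiesterase genes in the 5 Sham and 5 CTEPH libraries. Points are libraries, ordered by value within a group, and the black bar is the group mean with its SD. The 5 CTEPH points of PDE2A, from 10.52 to 11.10, lie under the lowest Sham point at 11.18, and in the other genes the groups overlap.

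PDE2A encodes the dual-substrate enzyme whose cAMP hydrolysis rises when cGMP binds its regulatory domain, and it lies on chromosome 9 of Sscrofa11.1 from 7136637 to 7227966. Its log2 values were 11.18 in s2, 11.73 in s6, 11.37 in s7, 11.56 in s8 and 11.22 in s10 among the Sham libraries. In the CTEPH libraries they were 10.65 in s1, 10.91 in s3, 11.10 in s4, 10.52 in s5 and 10.85 in s9. All 5 CTEPH libraries lay below every Sham library, with the highest CTEPH library (s4) close to the lowest Sham library (s2). PDE2A was the only gene of the 10 without overlap, where 2.87% of all genes had CTEPH below Sham in this way. The means were 10.81 ± 0.23 in CTEPH and 11.41 ± 0.23 in Sham (mean ± SD of 5 libraries each). PDE2A fell by 0.60 ± 0.15 on the log2 scale (SE; 95% interval -0.93 to -0.28; limma, Benjamini-Hochberg adjusted p = 0.0406).

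The PDE2A call lay close to the threshold. Leaving out 1 library at a time kept the fold change between -0.68 and -0.53, but the call was kept in only 3 of the 10 refits, those without s2, s4 or s9 (limma, Benjamini-Hochberg adjusted p = 0.0481, 0.0413 and 0.0470). Without CTEPH library s1, s3 or s5 the adjusted p was 0.0592, 0.0638 and 0.0900. Without Sham library s6, s7, s8 or s10 it was 0.105, 0.0785, 0.0928 and 0.0609. A variance prior without an intensity trend gave 0.0690.

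Endothelial markers moved in the same direction as PDE2A, which endothelial cells are known to express. The fold changes of all 11 measured endothelial markers were negative (median -0.35), and 2 of them, TEK and FLT1, fell. The log2 of the summed marker level was 15.04 to 15.37 in CTEPH and 15.19 to 15.86 in Sham libraries, and 0 of the 11 markers were at a count of 0 in all libraries. The mean of the marker list differed by -0.42 between the groups. PDE2A less that mean was -0.55 ± 0.24 in CTEPH and -0.37 ± 0.13 in Sham (mean ± SD of 5 libraries each), a difference of -0.18, with 4 of the 5 CTEPH libraries inside the Sham range of -0.57 to -0.24 and s5 below it at -0.95. This ratio was formed after the values were seen and has no test, and the part of the endothelial markers in the PDE2A result was not tested.

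The PDE3 genes encode the cGMP-inhibited enzymes that milrinone blocks. PDE3A, the main cardiac form, lies on chromosome 5 from 52413503 to 52737771. It was at 14.67 in s2, 14.00 in s6, 14.31 in s7, 14.50 in s8 and 14.56 in s10 (Sham), and at 14.17 in s1, 13.80 in s3, 13.95 in s4, 14.13 in s5 and 14.02 in s9 (CTEPH). Sham library s6 lay within the CTEPH range and the other Sham libraries above it. The fold change of -0.39 ± 0.15 (SE; 95% interval -0.71 to -0.08) did not pass (limma, Benjamini-Hochberg adjusted p = 0.148), and no refit without 1 library called it. Cardiomyocyte markers differed little in total: the log2 of their summed level was 20.96 to 21.14 in CTEPH and 20.89 to 21.30 in Sham, and the list mean differed by -0.03. PDE3A less that mean differed by -0.36.

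PDE3B, the form best known from insulin action in adipocytes and liver, lies on chromosome 2 from 44416934 to 44614075. Its values were 11.42 to 11.79 in Sham, with a median of 11.67, and 11.57 in s1, 11.69 in s3, 11.54 in s4, 12.34 in s5 and 11.81 in s9. Library s5 stood above the other CTEPH libraries. The fold change of 0.18 ± 0.16 did not pass (limma, Benjamini-Hochberg adjusted p = 0.586), and it was 0.04 without s5. Of the 7 measured adipocyte markers, 6 had negative fold changes and FABP4 a positive one (0.44), with a median of -0.58, and PLIN4 and CFD fell. The log2 of their summed level was 14.03 to 14.59 in CTEPH and at least 14.32 in Sham, with list levels relative to the mean of all libraries of -0.72 to 0.06 and -0.16 to 0.91, 0 of them were at a count of 0 in all libraries, and their part in the PDE3B values was not tested.

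The difference between PDE3A and PDE3B within a library did not pass the test between groups. PDE3A minus PDE3B was 2.79 ± 0.18 in Sham and 2.22 ± 0.31 in CTEPH (mean ± SD of 5 libraries each), a difference of -0.57. The CTEPH libraries ran from 1.79 (s5) to 2.60 (s1) and the Sham libraries from 2.58 (s6) to 3.03 (s10), so that s1 alone reached the Sham range. The two-sided exact permutation p was 0.0159, and 0.0635 after Benjamini-Hochberg adjustment over the 4 pairs of related genes compared, which does not pass. Without s1 the difference was -0.66 and passed (exact permutation, adjusted p = 0.0317). Leaving out s1 removed the only overlap between the groups, so that refit is no separate support, and no other refit of a pair passed. Without any other single library the difference ran no closer to 0 than -0.46.

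**Figure D2:**
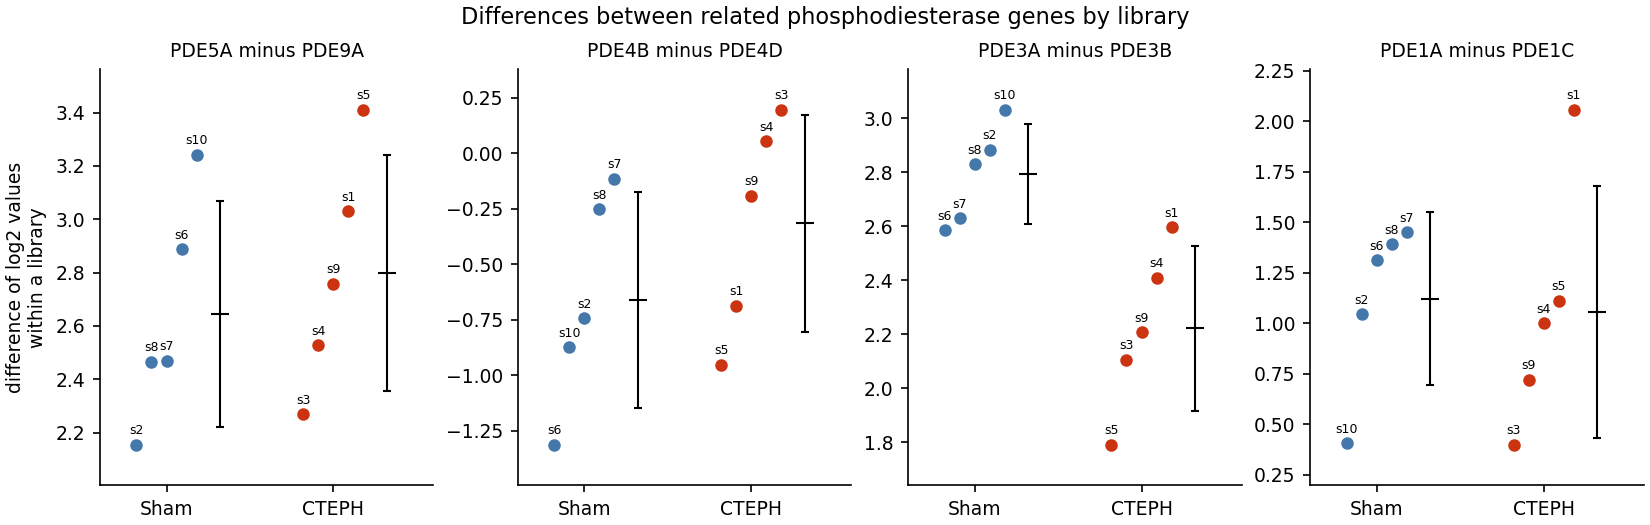
Difference of the log2 values of 2 related genes within each library (y axis, a separate range in each panel) for the 5 Sham and 5 CTEPH libraries. Points are libraries, ordered by value within a group, and the black bar is the group mean with its SD. In PDE3A minus PDE3B, 4 CTEPH libraries lie below every Sham library and s1, at 2.60, does not, and the other 3 pairs overlap widely.

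PDE1A and PDE1C encode calcium- and calmodulin-activated enzymes, with PDE1C known in cardiomyocytes and both in smooth muscle. PDE1A (chromosome 15, 87619049 to 87965068) was at 8.99 in s2, 9.54 in s6, 9.48 in s7, 9.74 in s8 and 8.85 in s10, and at 9.11 in s1, 8.88 in s3, 8.66 in s4, 9.15 in s5 and 9.05 in s9. The Sham libraries split into s6, s7 and s8, above all CTEPH libraries, and s2 and s10, within the CTEPH range. The fold change was -0.35 ± 0.19 (limma, Benjamini-Hochberg adjusted p = 0.339).

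PDE1C (chromosome 18, 40818316 to 41410555) had the widest CTEPH spread of the 10 genes, at 7.05 in s1, 8.48 in s3, 7.66 in s4, 8.04 in s5 and 8.33 in s9, against 7.95 to 8.45 in Sham with a median of 8.23. Its values could be read back as counts of 63 to 168 in the CTEPH and 97 to 216 in the Sham libraries, and s1 had the 63. The fold change was -0.29 ± 0.26 (limma, Benjamini-Hochberg adjusted p = 0.580), and without s1 it was -0.07. PDE1A minus PDE1C differed between the groups by -0.06, with an exact permutation p of 0.873, and this difference changed sign in 4 of the refits that left out 1 library.

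The 3 cAMP-selective genes among the 10 were all higher on average in CTEPH. By limma with Benjamini-Hochberg adjustment 0 of the 3 passed, while 2 had an unadjusted p under 0.05. The other measured genes of the PDE4 and PDE8 families went the other way, without passing. These were PDE4A, PDE4C and PDE8B (-0.83, -0.68 and -0.38), named here after their values were seen. PDE4B and PDE4D encode rolipram-sensitive enzymes that are tethered near adrenergic receptors and calcium channels. PDE4B (chromosome 6, 146167262 to 146720105) was at 12.53 in s2, 11.58 in s6, 13.01 in s7, 12.49 in s8 and 11.90 in s10, and at 13.19 in s1, 13.31 in s3, 12.94 in s4, 12.71 in s5 and 12.73 in s9. All CTEPH libraries exceeded 4 of the 5 Sham libraries, and Sham library s7 lay within the CTEPH range. The fold change was 0.68 ± 0.24 (SE; 95% interval 0.16 to 1.19; limma, Benjamini-Hochberg adjusted p = 0.130). Without s7 it was 0.85 (adjusted p = 0.0585), the lowest adjusted p of PDE4B among the refits without 1 library.

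Leukocytes, in which PDE4B is well known, had markers that were also higher in CTEPH. Of 11 measured macrophage and leukocyte markers 10 had positive fold changes, with a median of 0.39, and LYZ and TREM2 rose. The log2 of their summed level was 13.18 to 14.32 in CTEPH and 12.86 to 13.72 in Sham, and 0 of them were at a count of 0 in all libraries. The list mean differed by 0.72 between the groups, above the median of 0.39, with the largest fold changes in LYZ (2.38) and TREM2 (2.69). PDE4B less that mean differed by -0.04, with an SD of 0.16 in CTEPH and 0.91 in Sham libraries. LYZ and TREM2 had low Sham means (5.48 and 2.65), so the list mean and the -0.04 depend on genes with low values. The PDE4B fold change of 0.68 was above the marker median of 0.39. Within Sham, s7 held the highest PDE4B value and a low marker level (-0.67 against the mean of all libraries), and s6 held the lowest PDE4B value and the highest Sham marker level (0.12). The part of these markers in the PDE4B values was not tested.

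PDE4D (chromosome 16, 37897300 to 39406534) was at 12.74 to 13.27 in Sham, with a median of 12.89, and at 13.87 in s1, 13.11 in s3, 12.89 in s4, 13.66 in s5 and 12.92 in s9. Libraries s1 and s5 lay above every Sham library and the other 3 CTEPH libraries within the Sham range. The fold change of 0.33 ± 0.20 did not pass (limma, Benjamini-Hochberg adjusted p = 0.389). PDE4B minus PDE4D was -0.31 ± 0.49 in CTEPH and -0.66 ± 0.49 in Sham (mean ± SD of 5 libraries each), and the difference of 0.34 was within the spread between libraries (two-sided exact permutation p = 0.286, adjusted 0.571).

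PDE8A encodes a cAMP enzyme of high affinity that the common inhibitor IBMX leaves active. The gene (chromosome 7, 52410766 to 52558482) was at 10.25 in s2, 10.61 in s6, 10.94 in s7, 10.51 in s8 and 10.25 in s10, and at 11.58 in s1, 10.56 in s3, 10.88 in s4, 11.37 in s5 and 10.82 in s9. As for PDE4D, s1 and s5 were the highest libraries and the only ones above every Sham library. The fold change was 0.53 ± 0.21 (SE; 95% interval 0.09 to 0.98; limma, Benjamini-Hochberg adjusted p = 0.165), and it ranged from 0.40 to 0.65 over the refits without 1 library, none of which called it.

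The cGMP-selective genes showed no difference beyond the spread between pigs. PDE5A (chromosome 8, 104270858 to 104420955) was at 9.59 in s2, 10.17 in s6, 9.94 in s7, 10.07 in s8 and 10.16 in s10, and at 10.01 in s1, 9.91 in s3, 9.82 in s4, 10.50 in s5 and 10.24 in s9. Libraries s1, s3 and s4 lay within the Sham range, and s5 and s9 above it. The fold change was 0.11 ± 0.17 (limma, Benjamini-Hochberg adjusted p = 0.764), and its 95% interval reached from a level 0.839 times to 1.39 times that of Sham. Smooth muscle is a known site of PDE5A, and smooth muscle and pericyte markers varied widely in CTEPH, with list levels of -0.54 in s1 and -0.31 in s9 but 0.49, 0.65 and 0.46 in s3, s4 and s5, against -0.34 to 0.03 in Sham. The median fold change of the 12 markers was 0.09, with 7 positive and 5 negative, CNN1 and DES rose, and 0 of the 12 were at a count of 0 in all libraries. The log2 of their summed level was 17.93 to 19.51 in CTEPH and 17.24 to 17.82 in Sham. Most of that sum, which is not scaled by gene length, was DES, which cardiomyocytes also express (17.70 to 19.38 in CTEPH and 16.76 to 17.47 in Sham). Without DES, left out after its values were seen, the summed level of the other 11 markers (log2) was 15.02 to 15.98 in CTEPH and 15.23 to 15.61 in Sham, so that the groups overlapped. Their part in the PDE5A values was not tested.

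PDE9A, whose product prefers cGMP with high affinity and is linked in the heart to natriuretic peptide signals, lies on chromosome 13 from 205938342 to 206034981. Its values could be read back as counts of 60, 94, 131, 75 and 65 in s1, s3, s4, s5 and s9 and of 99, 115, 64, 77 and 48 in s2, s6, s7, s8 and s10. The log2 values spanned 6.98 to 7.64 in CTEPH and 6.92 to 7.61 in Sham. The fold change of -0.05 ± 0.21 did not pass (limma, Benjamini-Hochberg adjusted p = 0.935), with a 95% interval from 0.705 to 1.33 times the Sham level, and its sign flipped under further loess normalization (0.0053), library weights (0.06) and voom on counts (0.03). PDE5A minus PDE9A differed by 0.16 (two-sided exact permutation p = 0.579, adjusted 0.772).

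**Figure D3:**
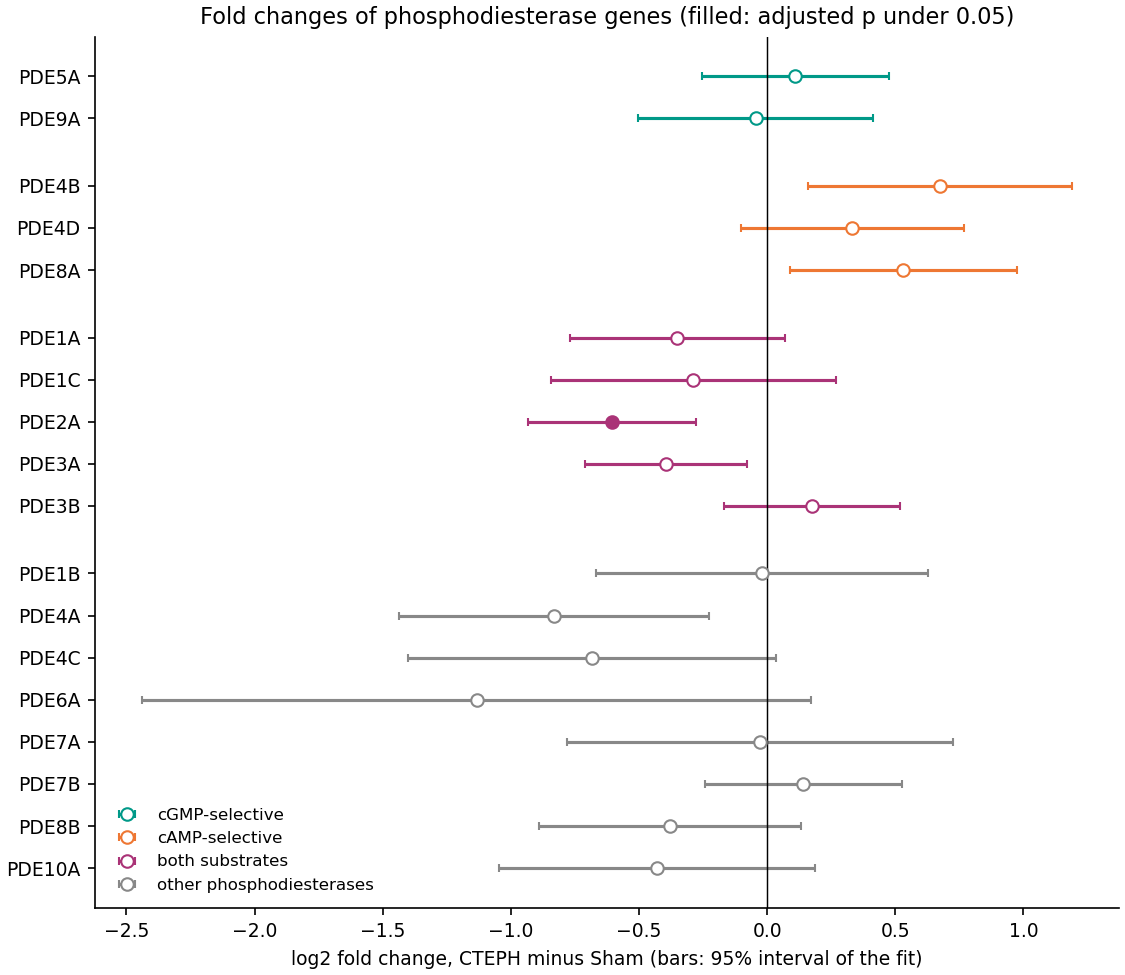
Log2 fold change, CTEPH minus Sham (x axis), of the 10 phosphodiesterase genes by substrate and of 8 other measured phosphodiesterase genes, with the 95% interval of the limma fit. The filled point marks PDE2A at -0.60, the only gene shown with an adjusted p under 0.05.

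Within groups, 6 of the 10 genes varied less than the median gene of the table. The residual SD, pooled over both groups, was lowest in PDE3A at 0.21 and highest in PDE4B at 0.44, while the median over all genes was 0.354. Libraries s1 and s5 shared the upper end of PDE4D and PDE8A in CTEPH, and s5 alone held the highest PDE5A and PDE3B values and the lowest PDE2A value. The mean level of the 5 genes for both substrates was -0.33 to -0.01 in CTEPH and 0.07 to 0.32 in Sham, relative to each gene's mean over the 10 libraries, without overlap. This was not particular to them: the 8 other measured PDE genes lay at -0.44 to 0.002 in CTEPH and 0.03 to 0.41 in Sham, also without overlap. The same measure over the 3 cAMP-selective genes was -0.02 to 0.70 in CTEPH and -0.54 to 0.17 in Sham, and over the 2 cGMP-selective genes -0.18 to 0.18 and -0.16 to 0.16. These levels have no test, because the members were chosen with results known.

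**Figure D4:**
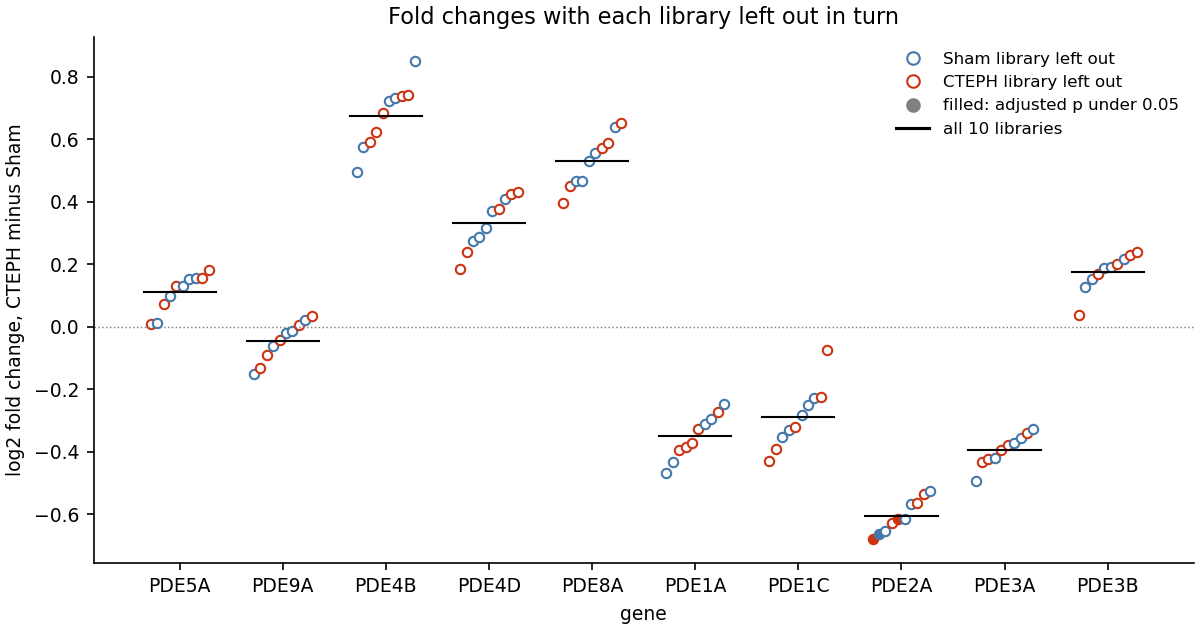
Log2 fold change, CTEPH minus Sham (y axis), of each of the 10 genes when each library is left out in turn. Points are the 10 refits per gene, coloured by the group of the library left out and filled where the adjusted p was under 0.05, and black lines are the values with all 10 libraries. Only PDE2A has filled points, 3 of 10, and only PDE9A crosses 0.

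Of 13 other PDE genes listed, 8 were measured and 0 of them passed by limma with Benjamini-Hochberg adjustment, with 1 at an unadjusted p under 0.05. Their fold changes ran from -1.13 to 0.14 with a median of -0.41, and 7 of 8 were negative. The gene with the unadjusted p was PDE4A, a paralog of PDE4B, at 9.20 ± 0.48 in CTEPH and 10.03 ± 0.55 in Sham (mean ± SD of 5 libraries each; log2 fold change -0.83 ± 0.28; limma, Benjamini-Hochberg adjusted p = 0.112), named after its value was seen. PDE4A and PDE4C (-0.68 ± 0.33) thus had negative fold changes while PDE4B and PDE4D had positive ones, and the differences between these genes were not tested. PDE6B, PDE6C, PDE6G, PDE6H and PDE11A are not analysed here.

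In the cGMP pathway 1 of 18 measured genes rose and 1 fell, beside 4.62% of all genes called in either direction. NPPB, the gene for B-type natriuretic peptide, rose by 6.57 ± 0.85 (limma, Benjamini-Hochberg adjusted p = 7.6e-04), and NPPA, the atrial peptide gene, differed by 1.83 ± 0.66 without passing (limma, Benjamini-Hochberg adjusted p = 0.137). Without s1 the NPPA difference was 2.38 and passed (limma, Benjamini-Hochberg adjusted p = 0.0252), in 1 of the 10 refits without 1 library. Without s6, the Sham library with the lowest NPPA value, the difference was 1.28 and did not pass (limma, Benjamini-Hochberg adjusted p = 0.257). The natriuretic peptide receptor genes did not pass: the guanylyl cyclase receptor NPR1 differed by -0.25 ± 0.24 and the clearance receptor NPR3 by -0.46 ± 0.27. GUCY1A1, the alpha subunit of the nitric oxide-sensing soluble guanylyl cyclase, fell by 0.81 ± 0.17 (limma, Benjamini-Hochberg adjusted p = 0.0178). Its values were 9.43 to 9.81 in Sham and 8.45 to 9.25 in CTEPH, without overlap, and the call was kept in all 10 refits without 1 library.

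The partner subunit gene GUCY1B1 was at 10.50 ± 0.28 in CTEPH and 11.10 ± 0.35 in Sham (mean ± SD of 5 libraries each), a difference of -0.60 ± 0.19 that did not pass (limma, Benjamini-Hochberg adjusted p = 0.0900). The endothelial nitric oxide synthase gene NOS3 differed by -0.45 ± 0.25 and the cGMP-dependent kinase gene PRKG1 by -0.21 ± 0.21, neither passing (limma, Benjamini-Hochberg adjusted p = 0.336 and 0.636). Over the cGMP list, 13 of 18 fold changes were negative, with a median of -0.24 beside -0.03 over all genes. An unadjusted p under 0.05 was reached by 6 of the 18 (33.3%), beside 20.3% of all genes.

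In the cAMP pathway 1 of 34 measured genes rose and 1 fell, beside 4.62% of all genes called in either direction. PRKAR1A, the type I alpha regulatory subunit that restrains protein kinase A until cAMP binds, rose by 0.84 ± 0.16 (limma, Benjamini-Hochberg adjusted p = 0.0121), from 13.54 ± 0.16 in Sham to 14.37 ± 0.33 in CTEPH (mean ± SD of 5 libraries each). Every CTEPH library, from 13.87 to 14.75, exceeded every Sham library, from 13.27 to 13.69, and all 10 refits without 1 library kept the call. ADCY6, a main adenylyl cyclase gene of cardiomyocytes, fell by 0.81 ± 0.19 (limma, Benjamini-Hochberg adjusted p = 0.0269), from 15.89 ± 0.18 to 15.08 ± 0.39, also without overlap. Its call was kept in 3 of the 10 refits (without s1, s2 or s9) and was lost without s3, s4 or s5 (adjusted p = 0.0504, 0.0554 and 0.0626) and without s6, s7, s8 or s10 (0.0704, 0.0518, 0.0666 and 0.0515, limma with Benjamini-Hochberg).

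The other cyclase gene typical of the heart, ADCY5, differed by -0.22 ± 0.28, the beta-1 adrenergic receptor gene ADRB1 by -0.08 ± 0.30 and the catalytic kinase subunit gene PRKACA by 0.15 ± 0.20, none passing (limma, Benjamini-Hochberg adjusted p = 0.702, 0.913 and 0.738). ADCY5 and ADRB1 changed sign with library weights, to 0.03 and 0.04. Over the cAMP list the median fold change was -0.07, 10 of 34 genes (29.4%) had an unadjusted p under 0.05 beside 20.3% of all genes, and 15 were positive and 19 negative.

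Among 22 measured anchors and partners of PDEs, 1 rose and 0 fell, near the 4.62% of all genes called in either direction. The median fold change was -0.05, and 2 of the 22 (9.09%) had an unadjusted p under 0.05, beside 20.3% of all genes. CALM2, a gene for calmodulin, the calcium sensor that activates PDE1, rose by 0.51 ± 0.13 (limma, Benjamini-Hochberg adjusted p = 0.0405), and its CTEPH libraries lay at 13.41 to 13.94 against 13.13 to 13.35 in Sham. CALM2 kept its call only in the refit without s3. It lost it without CTEPH library s1, s4, s5 or s9 (adjusted p = 0.0593, 0.0939, 0.0634 and 0.0541) and without Sham library s2, s6, s7, s8 or s10 (0.0847, 0.0844, 0.0841, 0.0882 and 0.0703, limma with Benjamini-Hochberg). The anchor gene AKAP6, which holds PDE4D at the nuclear envelope, differed by -0.17 ± 0.17, and PDE4DIP, which encodes the PDE4D-binding myomegalin, by -0.07 ± 0.27, with a sign that turned under library weights (0.07).

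**Figure D5:**
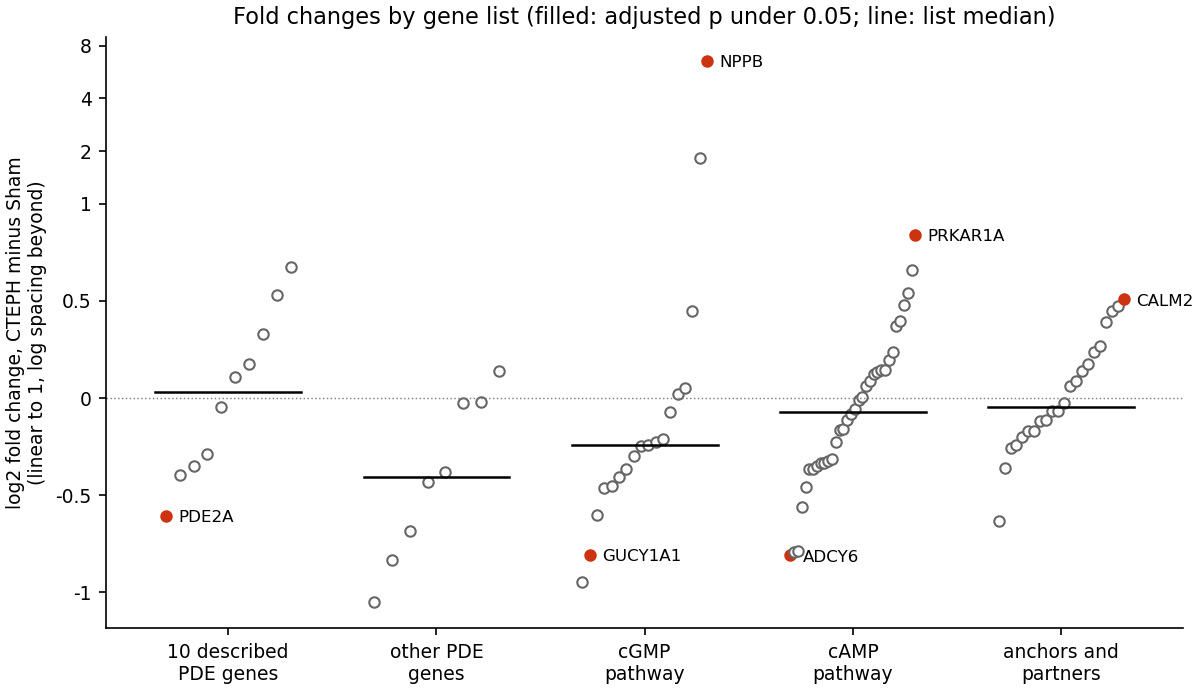
Log2 fold change, CTEPH minus Sham (y axis, linear to 1 and log-spaced beyond), of every measured gene in 5 lists: the 10 phosphodiesterase genes, other phosphodiesterase genes, the cGMP pathway, the cAMP pathway, and anchors and partners of phosphodiesterases. Filled points with names passed an adjusted p of 0.05, and black lines are list medians, of which the lowest is that of the other phosphodiesterase genes at -0.41.

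Markers of dividing cells and the other marker lists give the scale of the contrast. All 7 measured markers of dividing cells rose, with a median log2 fold change of 3.60, and the log2 of their summed level was 11.31 to 12.84 in CTEPH and 9.14 to 9.65 in Sham libraries. The 10 fibroblast markers had a median of 0.07 and 0 calls by limma with Benjamini-Hochberg adjustment, 2 at an unadjusted p under 0.05, and summed levels (log2) of 16.97 to 18.03 in CTEPH and 17.04 to 17.77 in Sham. The 9 cardiomyocyte markers had a median of -0.04, likewise 0 calls by limma, and 2 at an unadjusted p under 0.05.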

How the data were processed

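Right ventricular biopsies of 5 CTEPH and 5 Sham pigs gave 1 library each, grouped by the labels' titles, which share no replicate numbers between groups. Per the submitters' processing notes, the tools included limma 3.50.0, edgeR 3.36.0, featureCounts, cutadapt 1.15 and bcl2fastq 2.18.12, with the build Sscrofa11.1. The aligner, annotation, strand setting, low-count filter and normalization were not given in the sources used here (per the labels, the molecule is polyA RNA, while their extraction protocol names a kit for total RNA).

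The values the authors deposited are on a log2 scale with nearly equal distributions in all libraries (medians of 9.305 to 9.308), so a shift common to most genes would be removed. Values below 9.48 (52.8% of the table) were rebuilt within 5.0e-10 (tolerance 1e-06) as quantile means of log2(count + 0.5) + 1, where the counts may be off by a common factor. Relative depth is the median ratio of these counts to their geometric mean over libraries, from 5703 genes with at least 5 counts in each library. Total counts could not be computed. Symbols matched 12378 of 15638 genes, and positions, counted from 1, are those of RefSeq genes on Sscrofa11.1 with the same symbol. Transcript lengths and gene sequences were not used here.

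The comparison of CTEPH with Sham used limma 3.58.1 under R 4.3.3 (variances with an intensity trend, no covariate, two-sided). The fit was tested on simulated data first. Within-library differences of 4 gene pairs were tested by exact permutation, two-sided, over all 252 assignments, whose smallest p is 0.00794. Alternatives were other variance priors, library weights, leaving out the lowest 25% of genes, cyclic loess, a 1.5-fold threshold, voom on recovered counts and leaving out each library. Named genes were the 10 members, every called gene of the PDE, cGMP, cAMP and anchor lists, and 15 set genes, others being marked. The members and lists were chosen with earlier results of these data known. The spread is that between libraries of different pigs, per the labels.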

Additional observations from a re-analysis of the deposited data

Results flagged for a closer look

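Outlying libraries were sought in 60 groups of 5 values, those of 26 named genes and 4 gene pairs in each group, by the gap to the nearest library as a share of the group's range (above 0.71). Chance flags about 1 in 20 groups, and 2 were found. NPPA was at 9.61 in Sham library s6, while the other Sham libraries lay between 12.06 and 12.62. PDE4DIP was at 15.91 in Sham library s2, while the other Sham libraries lay between 14.93 and 15.19. No value of the 10 PDE genes was flagged.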

How the results depend on the processing

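The precision rests on 5 pigs a group, and the 95% interval of a PDE gene spans 0.63 to 1.11 on the log2 scale. PDE2A kept its direction under every alternative run, and the call of 1 PDE gene became 0 without an intensity trend and against a 1.5-fold change, and 0 to 1 with 1 library left out. Genes called numbered 1269 with library weights, 127 against a 1.5-fold change (1 in the cGMP list and 0 in the cAMP and anchor lists), 308 of 6763 genes with voom on recovered counts, and 401 to 961 with 1 library left out. Anchor genes called were 0 without an intensity trend, 2 with library weights and 0 to 1 with 1 library left out, and cAMP and cGMP genes called were then 1 to 3 and 2 to 3. The count of other PDE genes called was 0 in each of these refits. Reversed signs appeared for PDE9A (0.058 with library weights, 0.0053 with loess, 0.027 with voom, -0.15 to 0.034 with 1 library left out), ADRB1 (0.043 with weights, -0.33 to 0.12 with 1 left out), ADCY5 (0.026, -0.44 to 0.013) and PDE4DIP (0.069, -0.22 to 0.16). With 1 library left out, PDE1A minus PDE1C was -0.31 to 0.10 and PDE3A minus PDE3B -0.66 to -0.46. The causes were not tested. Voom gave no value for PDE2A and 7 other PDE genes, whose counts could not be recovered in all libraries, so list counts were not run with it. No paired analysis was possible because the groups share no replicate number.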
